A study of Homo sapiens with 12 samples.

Results

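A stop codon can arise by chance in the random bases of an NMD (nonsense-mediated mRNA decay) reporter library, one codon upstream of the place designed for it. The variants described here have a sense codon at bases 1 to 3 of the 10-base window, a stop codon at bases 4 to 6 and the tryptophan codon TGG at bases 7 to 9. The rule that picks them uses the sequence and no measured value, and they are called early-stop variants below. The table of the EJC-enhanced reporter lists 454 of them among 51306 variants, and that of the EJC-independent reporter 319 among 41955. The codon pattern allows 732 sequences, so 62.0% of them are listed for the EJC-enhanced reporter and 43.6% for the EJC-independent reporter. Those with a mean normalized count of at least 10 were used, 449 and 317 of them.

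The study measured RNA from 2 reporter libraries in HEK293T cells, a human embryonic kidney line. The EJC-enhanced library was measured in 3 libraries from cells given SMG1i at 0.5 µM and 3 from cells given DMSO, and the EJC-independent library likewise, for 24 hours in each case. All cells were labelled wild type and carried their reporter at 1 genomic location, placed there through Cre-Lox recombination. The labels give neither the coordinates of that place nor whether replicates are separate cultures.

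In NMD the cell degrades an mRNA on which translation ends too early. The kinase SMG1 phosphorylates the helicase UPF1 and so commits the mRNA to decay, and an exon junction complex (EJC), a protein mark left by splicing downstream of the stop codon, promotes the process. At the stop codon the release factor eRF1 frees the finished peptide from the tRNA of the last amino acid, a step called peptidyl-tRNA hydrolysis, whose rate the series set out to relate to the efficiency of NMD. In an early-stop variant that last amino acid is encoded by bases 1 to 3, the base after the stop codon is always T, and the TGG that marks a control without NMD elsewhere in the library lies downstream of the stop codon.

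The following sequences show the pattern for glycine and threonine, and for the aromatic tyrosine and phenylalanine, since designed stop variants of the EJC-independent reporter that match the early-stop variants averaged highest with the first pair (2.08 and 2.07) and low with the second (1.41 and 1.51). Each is the most abundant variant of its kind that both tables list, with the stop codon in capitals.

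Glycine, TGA: ggaTGAtggc
Glycine, TAA: ggaTAAtggg
Glycine, TAG: gggTAGtggt
Threonine, TGA: actTGAtggc
Threonine, TAA: actTAAtggc
Threonine, TAG: acaTAGtggc
Tyrosine, TGA: tacTGAtggc
Tyrosine, TAA: tacTAAtggc
Tyrosine, TAG: tacTAGtgga
Phenylalanine, TGA: ttcTGAtggt
Phenylalanine, TAA: ttcTAAtggc
Phenylalanine, TAG: tttTAGtggc

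The closest control of each variant differs from it only at the stop codon. The variant ttcTGAtggt has the partner ttcTGGtggt, and actTGAtggc has the partner actTGGtggc, where the capitals mark the codon that differs. Each variant has 1 deposited comparison of the treatments, and values of single libraries are not part of the tables. The response of a variant is the deposited log2 fold change with its sign reversed, so that a positive response is read as more RNA under SMG1i than under DMSO. The numerator of that ratio is not named, and with the other choice every sign would turn. How the zero of each table was set is not stated either, so differences between kinds of variants are the firmer measure.

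Early-stop variants rose more under SMG1i, relative to DMSO, than controls without a stop codon, in both reporters. Their mean response was 2.23 ± 0.89 (SD over 449 variants) in the EJC-enhanced reporter, where TGG variants with the same first codon and the same last base stood at 0.03 on average. The difference was 2.21 (95% interval 2.12 to 2.29), which is 4.61-fold. The EJC-independent reporter gave a mean of 1.76 ± 0.72 (SD over 317 variants), against -0.01 in the matched controls. The difference there was 1.77 (95% interval 1.69 to 1.85), or 3.42-fold. These intervals give the spread between sequences measured in the same libraries and not between cultures.

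The exact partners gave the same picture. A partner with TGG in the place of the stop codon was measured for 400 early-stop variants of the EJC-enhanced reporter, and in 385 of them the early-stop variant had the higher response. The means were 2.22 for the early-stop variants and 0.01 for their partners. Of 223 early-stop variants with a partner in the EJC-independent reporter, 211 were above it, with means of 1.77 and -0.08. In the authors' deposited table, EJC-independent reporter, ttcTGAtggt had a response of 1.39 (standard error 0.12) and its partner one of -0.10 (standard error 0.13). The EJC-enhanced values in the authors' deposited table are 2.92 (standard error 0.56) for ttcTGAtggt and 0.48 (standard error 0.42) for that partner.

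By the authors' deposited table, 327 of 445 early-stop variants with an adjusted p were higher under SMG1i at an adjusted p under 0.05 in the EJC-enhanced reporter (73.5%, exact 95% interval 69.1 to 77.5), beside 63.9% of the whole table. The EJC-independent reporter had 240 of 316 (75.9%, exact 95% interval 70.8 to 80.6), beside 64.8% of its table. No early-stop variant was called lower in either, where 0.357% and 1% of the tables were. Designed stop variants, with 2 sense codons before the stop codon at bases 7 to 9, were called higher more often, at 86.1% and 84.9%. They were also more abundant, with a median mean normalized count of 143 in the EJC-enhanced and 245 in the EJC-independent reporter, against 62.8 and 111 for early-stop variants. Among early-stop variants with a mean count at or above 50, 89.5% were called higher in the EJC-enhanced and 92.9% in the EJC-independent reporter, beside 67.9% and 71.6% of the whole tables and 93.1% and 94.2% of the designed stop variants. With a mean count at or above 100, 94.3% were called higher in the EJC-enhanced reporter and 97.1% in the EJC-independent reporter. At that count 67% and 73.8% of the whole tables, which include the TGG controls, were called higher, and 96.0% and 98.1% of the designed stop variants.

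Much of the spread among early-stop variants is of the size of the error of single measurements. Responses ran from -0.64 to 5.27 in the EJC-enhanced reporter with a median of 2.21, and from -0.43 to 4.79 in the EJC-independent reporter with a median of 1.697. The mean squared deposited standard error equals 81.7% of the variance among early-stop variants in the EJC-enhanced and 80.8% in the EJC-independent reporter. Responses below 0 occurred in 7 and 6 variants. All 6 of the EJC-independent reporter had a mean count of 56.6 or less. With a mean count at or above 100 the SD fell to 0.64 over 142 variants and to 0.45 over 170 variants, and the means were 2.38 and 1.72.

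The stop codons gave similar responses, with 1 pair apart in each reporter. The mean in the EJC-enhanced reporter was 2.29 for TGA (141 variants), 2.30 for TAA (155) and 2.11 for TAG (153). In pairs that share the first codon and the last base, TAA stood above TAG by 0.28 (95% interval 0.07 to 0.49, higher in 70 of 112 pairs). The TGA minus TAG difference was 0.09 (interval -0.15 to 0.32) and TGA minus TAA was -0.09 (interval -0.28 to 0.10), and neither is separated from 0. Means in the EJC-independent reporter were 1.84 for TGA (102 variants), 1.74 for TAA (108) and 1.703 for TAG (107). There TGA stood above TAA by 0.26 (interval 0.01 to 0.50, higher in 33 of 59 pairs), while TGA minus TAG was 0.12 (interval -0.13 to 0.38) and TAA minus TAG 0.06 (interval -0.14 to 0.26). These are 3 comparisons per reporter with intervals not widened for their number. Both differences lost their call with a mean count at or above 50, at 0.21 for TAA minus TAG in the EJC-enhanced reporter and 0.15 for TGA minus TAA in the EJC-independent reporter.

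The amino acid next to the stop codon can be read from 58 of the 61 sense codons in the EJC-independent reporter and from all 61 in the EJC-enhanced reporter. AGA and AGG, which code for arginine, and GAA, which codes for glutamate, were not found among the variants used of the EJC-independent reporter. Amino acids are unevenly covered, from 2 variants of lysine to 54 of leucine in the EJC-enhanced reporter. The range is 2 to 44 in the EJC-independent reporter, where methionine, tryptophan and glutamate have 2 each and leucine 44. Amino acids held 3.62% of the variance of single variants in the EJC-enhanced and 10.6% in the EJC-independent reporter. These are raw shares, not corrected for the number of amino acids. Such a share lies above 0 even where amino acids do not differ, and it was not tested.

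By 95% intervals in the EJC-independent reporter, threonine stood above and arginine and tyrosine below the mean of the other variants. Threonine, a small amino acid with a branched side chain, averaged 2.13 ± 0.54 (SD, 25 variants), which is 0.40 above the others (95% interval 0.09 to 0.71). Tyrosine, with a large aromatic ring, averaged 1.34 ± 0.43 (12 variants), an effect of -0.43 (interval -0.85 to -0.01). Arginine, with a long charged side chain, averaged 1.39 ± 0.58 (25 variants), an effect of -0.40 (interval -0.70 to -0.11). With intervals widened for 20 amino acids, 0 of 20 were separated from the rest, since these ran from -0.08 to 0.88 for threonine, from -1.09 to 0.22 for tyrosine and from -0.86 to 0.05 for arginine. Tyrosine passed the widened interval with a mean count at or above 50, at -0.65 (widened interval -1.13 to -0.18), and with a mean count at or above 100, at -0.61 (widened interval -1.12 to -0.10). Threonine passed it with inverse variance weights, at 0.41 (widened interval 0.06 to 0.75).

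Among the amino acids with 10 or more variants in the EJC-independent reporter, alanine (2.01, 23 variants) and glycine (1.98, 12 variants) followed threonine. Then came proline (1.81, 39), leucine (1.78, 44), valine (1.73, 19) and serine (1.72, 38), histidine (1.57, 15) and phenylalanine (1.54, 19), with arginine and tyrosine last. Neighbours in this order lay at most 0.17 apart, less than the SD within each of them. Aspartate stood highest of all 20 at 2.32, but with 5 variants that ran from 1.41 to 4.34. Methionine came next at 2.17, with 2 variants. Glutamate at 1.06 and tryptophan at 1.102 stood lowest, each with 2 variants.

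Taken by class in the EJC-independent reporter, aromatic amino acids averaged 1.44 over 33 variants, an effect of -0.35 against all others (95% interval -0.60 to -0.11). Basic amino acids averaged 1.47 over 43 variants, an effect of -0.33 (interval -0.56 to -0.10), and 25 of those variants are arginine. Polar amino acids (serine, threonine, asparagine, glutamine and cysteine) averaged 1.89 over 87 variants, an effect of 0.18 (interval 0.00 to 0.36). They did not move as one: threonine averaged 2.13 (25 variants) and serine, the largest member, 1.72 (38 variants, effect -0.04). Asparagine averaged 1.99 (7), glutamine 1.95 (9) and cysteine 1.81 (8). The class without threonine was not tested. Aliphatic (0.07), acidic (0.21), proline (0.06) and glycine (0.23) classes had intervals that include 0. All 7 intervals are at 95%, and none of the 7 classes passed an interval widened for 20 comparisons.

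The order was different and the intervals wide in the EJC-enhanced reporter. Of 20 amino acids, 0 passed the widened interval. At 95% methionine was higher, 3.27 ± 0.36 over 4 variants against 2.22 in the others (effect 1.05, interval 0.19 to 1.90), and so was leucine, 2.46 ± 0.74 over 54 variants (effect 0.26, interval 0.02 to 0.49). The leucine effect was -0.03 with a mean count at or above 100. Glycine averaged 2.48 ± 0.86 (16 variants), tyrosine 2.12 ± 1.18 (15 variants), arginine 2.11 ± 1.06 (38 variants), threonine 2.07 ± 1.13 (32 variants) and glutamine, the lowest, 1.96 ± 1.07 (19 variants). By class, polar amino acids were lower here, 2.099 over 132 variants against 2.29 in the others (effect -0.19, interval -0.37 to -0.01), while the sign was positive in the EJC-independent reporter. The difference between the reporters in that class effect was not tested. Aromatic (0.02) and basic (-0.11) amino acids did not stand apart.

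Glycine and tyrosine, the smallest side chain and one of the largest, were compared directly. The 12 glycine variants of the EJC-independent reporter had responses from 1.33 to 2.76 with a median of 1.85, and the 12 tyrosine variants from 0.66 to 2.15 with a median of 1.26. The groups overlapped, and the mean difference was 0.64 (95% interval 0.08 to 1.19). The call was lost with medians (0.58, interval -0.11 to 1.28), with inverse variance weights (0.50, interval -0.02 to 1.03) and after subtraction of the TGG partner (0.34, interval -1.03 to 1.70). That last value rests on a smaller set. Most glycine variants of this reporter, among them ggaTGAtggc with the highest response, have no measured partner. Among variants with a mean count at or above 100, the authors' deposited table lists 5 for glycine, with responses of 1.64, 1.98, 2.01, 2.33 and 2.76, and 7 for tyrosine, with 0.66, 0.94, 1.003, 1.25, 1.27, 1.32 and 1.48. These do not overlap, and their means of 2.15 and 1.13 lay 1.02 apart (interval 0.52 to 1.51). The mean count is taken over SMG1i and DMSO libraries together, so this limit is not independent of the response. With all 12 variants of each amino acid the groups overlap. All 5 of these glycine variants were called by the deposited adjusted p, the weakest at 9.08e-06, while tacTAGtggc (adjusted p 0.222) and tatTAGtggg (adjusted p 0.0693) among the tyrosine variants were not. At that count 97.1% of all early-stop variants of this reporter were called higher, beside 98.1% of designed stop variants and 73.8% of the whole table. Calls for all 5 glycine variants are therefore near the share of early-stop variants in general.

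The difference had the same sign before each stop codon, with few variants each. Before TGA glycine averaged 2.23 (3 variants) and tyrosine 1.29 (3). Before TAA they averaged 1.87 (7) and 1.55 (3), and before TAG 1.995 (2) and 1.27 (6). None of these 3 differences was separated from 0 alone. By codon, glycine gave 2.33 for GGA, 2.25 for GGT, 1.84 for GGC and 1.63 for GGG, from 2 to 4 variants each, and tyrosine 1.12 for TAC and 1.56 for TAT, from 6 variants each. TAC includes the 3 tyrosine variants of highest count.

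Glycine variants of the EJC-enhanced reporter ran from 1.11 to 4.02 and tyrosine variants from -0.20 to 3.91. The difference was 0.35 (95% interval -0.39 to 1.09) and is not separated from 0. The difference between the reporters in this contrast, -0.28 for EJC-enhanced minus EJC-independent, had an interval of -1.21 to 0.64, so these variants do not show whether the reporters differ for this pair. With a mean count at or above 50 that value was -1.27 (interval -2.36 to -0.19). Threonine minus tyrosine was -0.05 (interval -0.68 to 0.57) in the EJC-enhanced and 0.79 (interval 0.27 to 1.30) in the EJC-independent reporter. Threonine minus phenylalanine was -0.23 (interval -0.68 to 0.21) and 0.59 (interval 0.18 to 0.997). Glycine minus phenylalanine was 0.17 and 0.44, with intervals that include 0 in both. In the EJC-independent reporter it was 0.53 (interval 0.09 to 0.97) with a mean count at or above 100, and -0.59 (interval -1.86 to 0.69) after subtraction of the TGG partner. The latter value leaves out most glycine variants, which have no measured partner there. These 4 pairs were picked with earlier results of these data known, and their intervals are not widened for their number.

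Among the sequences printed above, those with TGA show the same contrast in single variants. In the EJC-independent table as the authors deposited it, actTGAtggc had a response of 2.50 (standard error 0.19) and ggaTGAtggc one of 2.76 (standard error 0.29). The authors' deposited table gives 0.94 (standard error 0.41) for tacTGAtggc and 1.39 (standard error 0.12) for ttcTGAtggt in the same reporter. The threonine and glycine variants with TGA lie above the other 2 by more than their standard errors. Of the partners in the authors' deposited table, EJC-independent reporter, tacTGGtggc stood at 0.92 (standard error 0.96), actTGGtggc at 0.06 (standard error 0.25) and ttcTGGtggt at -0.10 (standard error 0.13). The partner of tacTGAtggc is thus too imprecise to anchor the tyrosine value. Before TAA the order was not the same, with 2.28 for actTAAtggc, 1.64 for ggaTAAtggg, 1.25 for tacTAAtggc and 1.96 for ttcTAAtggc in the authors' deposited table, so that the phenylalanine variant stood above the glycine one. Before TAG the authors' deposited table gives 2.05 for acaTAGtggc, 1.66 for gggTAGtggt, 1.48 for tacTAGtgga and 1.38 for tttTAGtggc. In the EJC-enhanced reporter the order is not kept, with 2.03 for actTGAtggc, 3.26 for ggaTGAtggc, 3.36 for tacTGAtggc and 2.92 for ttcTGAtggt in the authors' deposited table, with standard errors between 0.56 and 0.74. The most abundant tyrosine variant, tacTAGtgga, had a mean count of 2083 and a response of 1.48 (standard error 0.11) in the authors' deposited table, EJC-independent reporter. The most abundant glycine variant, ggaTAAtggg, had a mean count of 2377 and 1.64 (standard error 0.12) there. That pair lies 0.16 apart and has different stop codons and last bases.

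Set against designed stop variants with the same codon next to the stop codon, the same stop codon and T as the next base, the mean difference of early-stop variants was not separated from 0 in either reporter. In the EJC-enhanced reporter the means were 2.23 for early-stop variants and 2.29 for the designed ones, a difference of -0.06 (95% interval -0.14 to 0.03, higher in 206 of 449). Those of the EJC-independent reporter were 1.76 for early-stop and 1.72 for designed variants, a difference of 0.04 (interval -0.04 to 0.12, higher in 162 of 317). The early-stop variants end 1 codon further upstream and continue with TGG, while the sources used here do not give what follows the designed stop codon beyond its next base. By stop codon the early-stop and designed means in the EJC-enhanced reporter were 2.29 and 2.29 for TGA, 2.30 and 2.31 for TAA, and 2.11 and 2.27 for TAG. These designed means pool all codons next to the stop codon. The TAG difference, -0.17 in matched variants (interval -0.33 to -0.01), was the only one of the 3 matched differences by stop codon whose interval leaves out 0.

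By amino acid, 0 of 20 early-stop means in either reporter differed from the designed ones past the widened interval. Glycine in the EJC-independent reporter had 1.98 in early-stop and 2.08 in designed variants, threonine 2.13 and 2.07, tyrosine 1.34 and 1.41, and phenylalanine 1.54 and 1.51. Arginine departed most among amino acids with 10 or more variants, with 1.39 against 1.78, a difference of -0.39 (95% interval -0.67 to -0.11, widened interval -0.82 to 0.04). All 25 of its variants have CGN codons. The early-stop and designed means by codon were 1.26 and 1.83 for CGC, 1.34 and 1.704 for CGG, 1.46 and 1.68 for CGA, and 1.68 and 1.85 for CGT. These designed means pool the stop codons and are not matched to the stop codons of the early-stop variants. Alanine was higher, 2.01 against 1.69 (difference 0.33, interval 0.02 to 0.63), and so was aspartate, 2.32 against 1.68 over 5 variants (0.64, interval 0.08 to 1.21). For the EJC-enhanced reporter only methionine departed at 95%, 3.27 against 2.12 over 4 variants.

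Across amino acids with 10 or more early-stop variants, the means of early-stop and designed variants in the EJC-independent reporter went together with a Pearson r of 0.74 and a Spearman rho of 0.67 over 11 amino acids. Over all 20, including those with 2 or 3 variants, r was 0.20 and rho 0.12. For the EJC-enhanced reporter r was -0.15 over 16 amino acids and -0.50 over all 20. These values are descriptions, since both kinds of variants come from the same libraries. The designed means span 0.15 over the 16 amino acids in the EJC-enhanced reporter and 0.69 over the 11 in the EJC-independent reporter.

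No effect of the last base of the window, which follows TGG, was separated from 0 in either reporter when variants with the same first codon and stop codon were compared. The 4 bases stood between -0.09 (G) and 0.05 (A) relative to the others in the EJC-enhanced reporter and between -0.06 (C) and 0.12 (A) in the EJC-independent reporter, and all 8 intervals include 0. The widest of these, for A in the EJC-independent reporter, ran from -0.17 to 0.41. For C in the EJC-enhanced reporter the value was 0.01, but -0.24 (interval -0.46 to -0.02) with a mean count at or above 100. After subtraction of the TGG partner, T stood at 0.29 (interval 0.01 to 0.56) in the EJC-enhanced and at -0.42 (interval -0.82 to -0.02) in the EJC-independent reporter.

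Replacing the TGG after the stop codon by another stop codon gave a related contrast with the first codon, the first stop codon and the last base unchanged. In the EJC-enhanced reporter early-stop variants averaged 2.22 and their counterparts with a second stop codon 2.26, a difference of -0.04 (95% interval -0.15 to 0.07, 416 variants). Those of the EJC-independent reporter averaged 1.74 and 1.85, a difference of -0.11 (interval -0.20 to -0.01, 265 variants). Each counterpart value is the mean over the second stop codons measured in that context. This contrast was not recomputed under the alternatives.

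Moving the stop codon a further codon upstream, to bases 1 to 3, gave differences of opposite sign in the reporters. Here early-stop variants were set against variants with a stop codon at bases 1 to 3, T as the next base and TGG at bases 7 to 9. These kinds of variants were not matched by stop codon or last base. In the EJC-enhanced reporter the means were 2.23 for early-stop variants and 2.06 for the 116 more upstream ones, a difference of 0.17 (95% interval 0.00 to 0.33). In the EJC-independent reporter the means were 1.76 for early-stop variants and 2.18 for the 76 more upstream ones, a difference of -0.42 (interval -0.65 to -0.20). In those more upstream variants the codon before the stop codon belongs to the fixed part of the reporter, which the sources used here do not give.

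Of the early-stop variants, 258 were used in both tables, 191 in the EJC-enhanced table alone and 59 in the EJC-independent table alone. After subtraction of each table's own matched controls, the shared variants averaged 2.25 in the EJC-enhanced and 1.75 in the EJC-independent reporter. The difference was 0.50 (95% interval 0.36 to 0.64), or 1.41-fold, with the EJC-enhanced value higher in 185 of 258. It was 0.40 for TGA, 0.60 for TAA and 0.49 for TAG, each with an interval above 0. Glycine variants were higher in the EJC-enhanced reporter in 7 of 7 cases, tyrosine in 8 of 10 and arginine in 15 of 19. Threonine was higher in 11 of 21, with a mean difference of -0.18 over its controls. Valine was higher in 5 of 13, with a mean difference of 0.27, and glutamine in 3 of 8, with one of -0.04. Responses of the same sequence in the 2 reporters had correlations near 0 (Pearson r -0.05, Spearman rho 0.00 over 258 sequences), where most of the spread in each is of the size of the deposited errors.

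The single variants at the ends of the range, among those with a mean count at or above 100, were not the same sequences in the 2 reporters. In the authors' deposited table, EJC-enhanced reporter, the highest were cccTAAtgga (4.33), ccaTAAtggg (3.81), ccgTAAtggc (3.66), atgTAGtgga (3.58) and cccTAGtgga (3.54), 4 of which have proline next to the stop codon and 1 methionine. The lowest there were caaTGAtggg (-0.05), with glutamine, and the serine variants tctTAAtggc (0.63), tctTAAtgga (0.98), tccTGAtggc (1.27) and tctTAGtggc (1.28). All 4 serine variants share TC as their first bases, as most serine codons do. Proline variants of the EJC-enhanced reporter had a median mean count of 168, against 62.8 for all early-stop variants. A larger share of them reaches a mean count of 100, and whether this bears on the list of highest variants was not tested. The highest in the authors' deposited table, EJC-independent reporter, were cctTGAtggt (3.41) and cccTAGtggc (3.19), both with proline, ctgTGAtggc (3.01) and ctcTAGtgga (2.62), both with leucine, and the glycine variant ggaTGAtggc (2.76). The lowest were the tyrosine variants tacTAGtggc (0.66) and tacTGAtggc (0.94), the leucine variant ttgTGAtggg (0.87), the phenylalanine variant tttTGAtgga (0.97) and the arginine variant cggTGAtggc (0.97). Standard errors of these 20 variants ran from 0.24 to 0.76. As groups, proline averaged 2.32 and serine 2.13 in the EJC-enhanced reporter, both within 0.12 of the others. By stop codon, proline there averaged 2.72 before TAA (15 variants), 2.18 before TAG (16) and 2.07 before TGA (15). With TAA alone the proline effect was 0.46 (widened interval -0.08 to 1.01).

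The listed early-stop variants are richer in C than the TGG controls with 2 sense codons. C holds the first base in 34.97% of early-stop variants against 28.7% of controls in the EJC-enhanced reporter, and in 39.4% against 31.7% in the EJC-independent reporter. A and G are scarcer at that base. Variants whose first codon starts with C had a median mean count of 81.8 in the EJC-enhanced and 130 in the EJC-independent reporter, and those with G 42.7 and 87.4. In the EJC-independent reporter the mean response was 1.96 with A, 1.91 with G, 1.73 with C and 1.56 with T as the first base, and in the EJC-enhanced reporter it lay between 2.18 and 2.28 for the 4 bases. Codons that share a first base spanned a range of means in the EJC-independent reporter. Of those with T and 5 or more variants, the serine codons TCT, TCC and TCA averaged 1.89, 1.80 and 1.202, phenylalanine TTC and TTT 1.61 and 1.44, tyrosine TAT and TAC 1.56 and 1.12, and cysteine TGT 1.36. Of those with A and 5 or more variants, the threonine codons ACT, ACA and ACC averaged 2.15, 2.13 and 2.13, and serine AGC 1.81.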

How the data were processed

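RNA of 12 libraries (4 groups of 3) was summarised by the authors in 1 table per reporter. Per the file headers, the deposited columns are a mean normalized count, here a signal over that reporter's libraries, then a log2 fold change and its standard error (both log2), a Wald score, and raw and adjusted p-values. DESeq and DESeq2 are named, without version, in the submitters' processing notes. The sources used here do not give how reads were processed. Depth per library is unknown, so no count model, size factor or replicate test could be run. Intervals over variants or pairs do not measure the spread between libraries. The deposited p-values and standard errors come from a comparison of the libraries, and whether those are separate cultures is not stated. The 2 tables were scaled apart, so reporters were compared by contrasts made within a table, such as variants minus their controls.

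Responses were computed with Python 3.11.15, pandas 2.3.3, numpy 2.4.6 and scipy 1.17.1, and codons translated with Biopython 1.88. Variants entered at a mean normalized count of at least 10. Just inside that limit stood gcgTAGtggg (10.01, response 2.75) in the EJC-independent and gacTAGtgga (10.3, response 0.76) in the EJC-enhanced table, and just outside cgtTGAtggc (8.88, response 0.48) and cgaTGAtgga (9.9, response 0.48), all from the authors' deposited table. Matched differences have 95% intervals of the mean over variants or pairs. Amino acid contrasts combine each variant's deposited standard error with a further spread shared by all amino acids. The planned pooled SD alone gave too narrow an interval on simulated data for glycine minus tyrosine in the EJC-enhanced reporter, though not for the other amino acid contrasts simulated, and became an alternative. The simulated errors came from the deposited standard errors alone, without further spread between sequences. The simulation therefore could not judge either interval where such spread is present. Widened intervals are Bonferroni intervals for 20 amino acids (99.75%). Sequences named singly are the 5 highest and 5 lowest per reporter at a mean count of at least 100, the most abundant of 4 amino acids before each stop codon, and glycine and tyrosine variants. The rule for members, though it uses sequence alone, and the lists, pairs and classes were chosen with earlier results of these data known. Alternatives changed the count limit, the summary, the weights, the subtraction and the stop codon. The mean count is taken over SMG1i and DMSO libraries together, so results at a count limit come from a filter that is not independent of the response.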

Additional observations from a re-analysis of the deposited data

Results flagged for a closer look

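The following comparisons differed between the reporters by their own interval. The effect of the early stop codon over its own controls was larger in the EJC-enhanced than in the EJC-independent reporter by 0.50 (95% interval 0.36 to 0.64, 258 shared variants). Threonine minus tyrosine differed by -0.84 (interval -1.64 to -0.03) and threonine minus phenylalanine by -0.82 (interval -1.43 to -0.22), EJC-enhanced minus EJC-independent. Each of these calls was lost at a mean count of at least 100 (-1.72, interval -3.65 to 0.21, and -0.43, interval -1.07 to 0.21) and for each stop codon alone, the first also with medians and the second also with the TGG partner subtracted. TGA minus TAA differed by -0.35 (interval -0.65 to -0.04), at -0.09 in the EJC-enhanced and 0.26 in the EJC-independent reporter. The EJC-independent value lost its call at a mean count of at least 50 (0.15). Early-stop variants minus variants with the stop codon at bases 1 to 3, not matched by stop codon or last base, differed by 0.59 (interval 0.31 to 0.87), at 0.17 and -0.42. Neither this difference between the reporters nor that of TGA minus TAA was recomputed under the alternatives. Of 20 amino acid effects, 0 differed between the reporters past an interval widened for 20, and 1 did at 95% (threonine, -0.17 in the EJC-enhanced and 0.40 in the EJC-independent reporter).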

How the results depend on the processing

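No paired analysis was possible because the tables hold no column per library. For the same reason replicates could not be left out, and TMM against DESeq2 size factors was not run. The response over controls and the difference between reporters kept their direction and call in each alternative run. Of 819 recomputed values under 12 settings, 132 changed sign. In 131 of these neither interval excluded 0, with the widened interval for single amino acid effects, and they were not counted as reversals, a rule set after the values were seen. By 95% intervals 3 single effects among them would count: EJC-enhanced leucine (-0.03 at a count of at least 100), and EJC-independent cysteine (-0.38 at a count of at least 50) and valine (0.90 with the partner subtracted). The cause of the changes below was not tested.

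The remaining one reversed: C after TGG in the EJC-enhanced reporter stood at -0.24 at a mean count of at least 100. TGA minus TAA in the EJC-independent reporter lost its call at a count of at least 50 (0.15), at least 100 (0.15), with medians (0.14), with inverse variance weights (0.10) and after subtraction of the TGG partner (0.26). In the EJC-enhanced reporter it gained one with weights (-0.18), while TAA minus TAG lost its call at a count of at least 50 (0.21), at least 100 (0.18) and with medians (0.23). Glycine minus tyrosine in the EJC-independent reporter lost its call with medians (0.58), weights (0.50), the partner subtracted (0.34), TGA (0.94), TAA (0.32) and TAG (0.73) alone. At a count of at least 50 it was -0.40 in the EJC-enhanced reporter, and its difference between the reporters, EJC-enhanced minus EJC-independent, gained a call at -1.27. Early-stop minus designed variants in the EJC-enhanced reporter moved to 0.045 and 0.078 at counts of at least 50 and 100, and to -0.17 for TAG. The percent called higher was 89.5 and 94.3 in the EJC-enhanced and 92.9 and 97.1 in the EJC-independent reporter at those counts, beside 67.9 and 67 of the EJC-enhanced and 71.6 and 73.8 of the EJC-independent table. For TAG in the EJC-enhanced reporter it was 67.3, beside 63.9 of the whole table and 85.2 of designed TAG variants. With the partner subtracted, the base after TGG gave 0.29 (T) and -0.25 (C) in the EJC-enhanced and -0.42 (T) and 0.13 (C) in the EJC-independent reporter, and with TGA alone 0.34 (T) and -0.19 (A) in the EJC-independent reporter. Both T values with the partner subtracted have intervals that leave out 0. Variants with the same first codon and last base share a partner, so those intervals may be too narrow.

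The number of amino acids past 95%, 2 in the EJC-enhanced reporter, was 1 with either count limit, medians, weights or TAG alone, 0 with TGA alone and 4 with the partner subtracted. The EJC-independent number, 3, was 6 and 5 at counts of at least 50 and 100, 0 with TAA or TAG alone and 7 with the partner subtracted. The number past the widened interval, 0 in both, was 1 in the EJC-independent reporter with either count limit or weights. With the partner subtracted it was 1 in the EJC-enhanced reporter (leucine, 0.55) and 2 in the EJC-independent reporter (arginine, -1.09, and cysteine, 2.75), where variants share partners, so these intervals may be too narrow. Threonine minus tyrosine, EJC-enhanced minus EJC-independent, lost its call at a count of at least 100 (-1.72), with medians (-0.77) and for each stop codon alone, as threonine minus phenylalanine did at a count of at least 100 (-0.43), with the partner subtracted (-0.68) and for each stop codon alone. Within the EJC-independent reporter, threonine minus phenylalanine lost its call with medians (0.46), with the partner subtracted (0.26) and for TAA (0.24) or TAG (0.57) alone, and threonine minus tyrosine for TGA (1.26) or TAA (0.49) alone. In the EJC-enhanced reporter threonine minus tyrosine gained one at a count of at least 50 (-0.90), as glycine minus phenylalanine did in the EJC-independent reporter at a count of at least 100 (0.53).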
